A study of Mus musculus with 31 samples.

Results

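The comparison described here set skin treated topically for 6 weeks with the inhibitor labelled jak3i against skin of the same arm at 0 weeks, its start. Its members were the arrays whose titles name this arm at 0 and at 6 weeks, 3 arrays each, which are 6 of the 31 arrays of the series, and all 18193 genes measured were compared. The mice were of the strain C3H/HeJ and had AA, read here as alopecia areata, that was established before treatment. The other groups used here were the control arm PBS and the arm jak1i at 0 and 6 weeks, and jak3i at 12 weeks, also with 3 arrays each, and jak3i at 24 weeks with 2. All groups share the strain and the tissue. Both compounds are known only by code, and no label gives a dose, age or sex. Treatment times carry no unit in their field and are read as weeks from the titles. Replicates are biological according to the design text. Whether the same mice were sampled at both times is not stated, so the arrays were treated as independent. The p-values rest on a spread between arrays pooled over all 31 arrays in 11 groups, not on the 6 compared arrays alone.

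JAK3 is a kinase that sits on the gamma chain shared by the receptors of several interleukins, among them interleukin 2, interleukin 7 and interleukin 15, and works there beside JAK1. Its signals keep T cells and natural killer cells alive and active. In alopecia areata such lymphocytes gather around the hair follicle, release granzymes and interferon-γ, and the surrounding cells answer with chemokines and with the machinery that presents peptides on MHC class I. Receptors of the interferons themselves use JAK1 with JAK2 or TYK2 and pass the signal on to STAT proteins. Hair follicles also cycle between growth and rest, and growing follicles carry most of the hair keratin RNA of skin.

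Expression was measured on Affymetrix arrays and is given as log2 of the authors' RMA value, so that 1 unit is a doubling. A difference is the mean at 6 weeks minus the mean at 0 weeks on that scale, with its standard error (SE) from limma. A gene is called higher or lower at a Benjamini-Hochberg adjusted p under 0.05 over all 18193 genes. The medians of the 6 arrays lay between 6.05 and 6.23. The tissue label was checked on keratins of the epidermis and on the matrix gene Dcn of fibroblasts. Krt5 read 12.98, 13.39 and 13.13 at 0 weeks and 12.42, 13.34 and 12.93 at 6 weeks, and Krt14, Krt10 and Dcn lay between 12.77 and 14.34 on all 6 arrays. These markers of skin were thus near the top of the measured range of 2.59 to 14.69 in both groups. The list of genes used in most cells had 0 of 9 measured members called and a median difference of −0.14.

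1 array stands apart from its group. At 6 weeks, replicate 1 had the highest mean of 37 hair shaft genes of all 31 arrays, 3.49 above their average, whereas replicates 2 and 3 of its group lay at −2.85 and −2.64. The same array had the lowest mean of the interferon-γ response genes of all 31, −2.83, against −1.14 and −1.03 in its group. The main lists are therefore given with and without it, and the part of hair content in any result was not tested beyond the values given.

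From 0 to 6 weeks, genes of the interferon response, of cytotoxic lymphocytes, of peptide presentation and of stressed keratinocytes fell. The 3 largest rises among called genes whose groups did not overlap, unnamed gene models left out, were Ces1f, Cyp2f2 and Scgb1a1. These are a carboxylesterase, a cytochrome P450 and a secretoglobin gene. Of 18193 genes, 573 were called (3.15%), 373 lower (2.05%) and 200 higher (1.1%). At least 2-fold differences made up 230 of the lower and 80 of the higher genes. The median of the called genes was −1.24 among those lower and 0.87 among those higher, beside a median of 0.01 over all genes. The 3 arrays at 6 weeks lay wholly outside the range of the 3 at 0 weeks for 560 of the 573, beside 19.6% of all genes. These genes were called on the difference between the same arrays, so this separation is no separate support for the calls. With each array centred on its own median, 710 genes were called, 329 higher and 381 lower, so that the higher genes made up a larger share than without it. The count depends on single arrays. It was 2463 without 6-week replicate 1, of which 1389 were higher and 1074 lower, so that the larger share turned from lower to higher. It was 1020 without 0-week replicate 3, 211 and 73 without 0-week replicates 1 and 2, and 223 and 286 without 6-week replicates 2 and 3. Of the 573 genes, 70 were called in all 6 of these fits, of which 68 were lower. List counts below are to be read beside the shares of all genes. With all arrays, 9.64% of genes had all 6-week arrays below the start arrays and 9.92% had them above. Without 6-week replicate 1, 5.9% of genes were called lower and 7.63% higher.

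**Figure D1:**
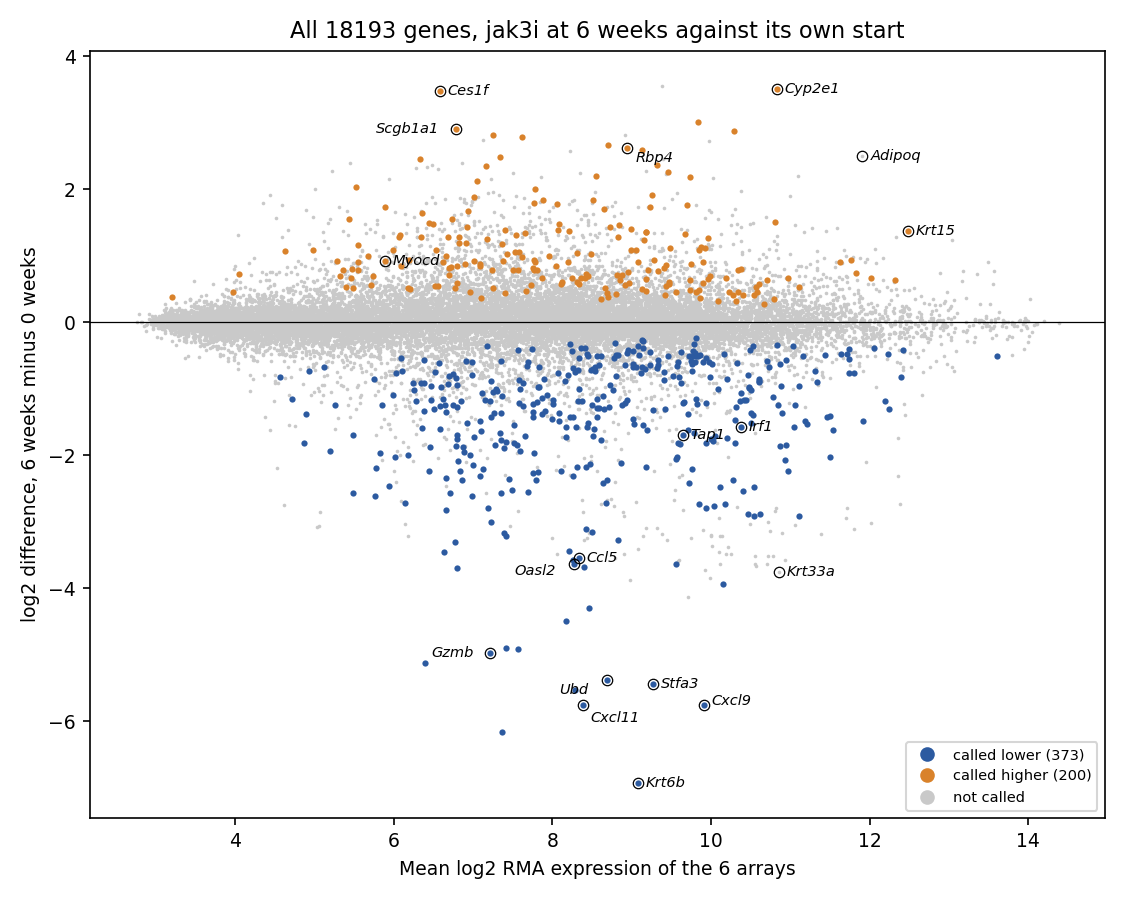
Each point is a gene, with its mean log2 RMA expression over the 6 arrays on the x axis and its log2 difference, 6 weeks minus 0 weeks, on the y axis. The 373 genes called lower are blue and reach −6.93 (Krt6b), the 200 called higher are orange, and grey genes were not called, among them the hair keratin gene Krt33a at −3.75.

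The ligands of the chemokine receptor CXCR3, which draw activated T cells into tissue and are classic interferon-γ targets, were among the largest falls. Cxcl9 read 13.16, 13.16 and 12.04 at 0 weeks and 5.17, 8.23 and 7.71 at 6 weeks. Cxcl10 read 11.71, 11.42 and 10.01 at 0 weeks and 5.25, 5.71 and 5.60 at 6 weeks. All arrays at 6 weeks lay far below all arrays at 0 weeks, and 6-week replicate 1 was the lowest for both genes. The difference was −5.75 (SE 1.07, limma adjusted p = 0.00583) for Cxcl9 and −5.53 (SE 1.01, limma adjusted p = 0.00501) for Cxcl10. Cxcl11 went from 11.75, 11.81 and 10.24 to 5.73, 5.50 and 5.29, a difference of −5.76 (SE 0.97, limma adjusted p = 0.0032). Its groups did not overlap either, and these 3 ligand genes were called in every fit that left out 1 of the 6 arrays. The gene of the receptor itself, Cxcr3, was not called, with a difference of −0.26 (SE 0.22) and overlapping groups.

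The wider interferon-γ response went the same way. Of 22 measured members, 17 were called lower (beside 2.05% of all genes) and 0 higher. In 20, all 6-week arrays lay below all 0-week arrays (beside 9.64% of all genes), and the median difference was −2.65. Ubd, which encodes a ubiquitin-like modifier induced by interferon-γ, read 11.64, 11.88 and 10.61 at 0 weeks and 3.97, 6.86 and 7.15 at 6 weeks, a difference of −5.38 (SE 1.06, limma adjusted p = 0.00756). Its lowest value by far was again in 6-week replicate 1. Gbp8, of the guanylate-binding proteins that guard cells against microbes, fell by 4.49 (SE 1.03, limma adjusted p = 0.0216), with 3.87 in that array and 6.61 and 7.30 in the others at 6 weeks. Irf1, the transcription factor that relays the interferon-γ signal, read 11.46, 11.13 and 10.91 at 0 weeks and 8.80, 9.98 and 9.99 at 6 weeks. Its difference of −1.58 (SE 0.38, limma adjusted p = 0.029) was smaller than that of the chemokine genes, with no overlap of the groups. The other called members were Gbp2, Gbp3, Gbp6, Gbp7, Igtp, Irgm1, Irgm2, Ifi47, Ciita, Cd274 and Nlrc5, and Irf8, Iigp1, Ido1, Socs1 and Serping1 were not called. Guanylate-binding and immunity-related GTPase genes are close relatives, and a probe set of one may also pick up another.

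Without 6-week replicate 1 the count of interferon-γ genes called lower was 15 with a median of −1.71, so the median shrank by more than 1.5-fold on the linear scale while most members were still called. Leaving out a start array mattered more for the count, which was 8 without 0-week replicate 1 and 5 without 0-week replicate 2. The differences of Cxcl9, Ubd and Gbp8 were −4.82, −4.37 and −3.46 without 6-week replicate 1, all still called. Ubd was called in 5 of the 6 fits that left out an array, Gbp8 and Irf1 in 4.

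Genes of the response to type I interferon, which encode antiviral effectors, were called lower in 18 of 21 measured members and higher in 0. All 21 had 6-week arrays below the start arrays. Of all genes, 2.05% were called lower and 9.64% lay wholly below. The median was −1.93. Oasl2, of the 2′-5′ oligoadenylate synthetase family, read 10.59, 10.35 and 9.32 at 0 weeks and 6.34, 6.60 and 6.42 at 6 weeks. The arrays at 6 weeks lay close together and more than 2 units below the lowest start array. The difference was −3.64 (SE 0.60, limma adjusted p = 0.00299). Mx1, an antiviral dynamin-like GTPase, fell by 3.31 (SE 0.56, limma adjusted p = 0.0032), Ifit1, which binds foreign RNA ends, fell by 3.16 (SE 0.55, limma adjusted p = 0.00379), and Rtp4 fell by 2.74 (SE 0.47, limma adjusted p = 0.0032). Each of these 4 genes was called in all 6 fits that left out an array. The 3 members not called were Ifit2 at −1.26, Rsad2 at −1.31 and Cmpk2 at −0.98. Without 6-week replicate 1 the list kept a count of 18 with a median of −1.69, and without 0-week replicate 2 it was 11.

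Since these genes moved together, the RefSeq promoters of the mouse build GRCm38.p6 were searched over the 250 bases before each listed start. The letters searched on both strands were GAAA, any 2 bases and GAAA again, the core of the interferon-stimulated response element bound by IRF proteins, and TTCNNNGAA, the gamma-activated site bound by STAT dimers. The first was found in 8 of the 14 interferon-γ genes with a listed promoter (57.1%) and in 6 of 16 type I genes (37.5%), beside 453 of 14452 genes (3.13%). The second was found in 5 of 14 (35.7%) and 3 of 16 (18.8%), beside 1073 genes (7.42%). Among all genes called lower the shares were 35 of 279 (12.5%) and 33 of 279 (11.8%). Among genes called higher they were 7 of 156 (4.49%) and 13 of 156 (8.33%). Of the 20 largest falls, 3 of 15 with a listed promoter held the first motif and 0 of 15 the second. For the 20 largest rises these were 0 of 13 and 1 of 13. MHC class I genes had 1 of 11 and 2 of 11, and cytotoxic genes 3 of 22 for each motif. The interferon lists were compiled as interferon response genes, so their shares do not describe the falling genes as a whole. A match says only that the letters are there. The promoters of Cxcl10, Irf1, Igtp, Irgm2 and Ifit1 show the arrangements found, with matches in capitals and positions counted backwards from the base before the start. They lie at chr5:92348890-92349139 (minus strand), chr11:53769764-53770013, chr11:58199306-58199555, chr11:58214727-58214976 and chr19:34640639-34640888 (plus strand), and are printed 5′ to 3′ along each gene.
Cxcl10: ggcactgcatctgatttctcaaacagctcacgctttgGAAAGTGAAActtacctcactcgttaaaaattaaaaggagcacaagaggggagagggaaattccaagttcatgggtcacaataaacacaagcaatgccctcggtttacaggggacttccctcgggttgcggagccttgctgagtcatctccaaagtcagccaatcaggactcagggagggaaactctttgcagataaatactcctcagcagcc
Irf1: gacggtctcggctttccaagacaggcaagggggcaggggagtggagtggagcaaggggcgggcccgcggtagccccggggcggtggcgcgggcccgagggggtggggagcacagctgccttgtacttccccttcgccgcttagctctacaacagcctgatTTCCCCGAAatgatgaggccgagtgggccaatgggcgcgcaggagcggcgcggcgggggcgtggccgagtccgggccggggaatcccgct
Igtp: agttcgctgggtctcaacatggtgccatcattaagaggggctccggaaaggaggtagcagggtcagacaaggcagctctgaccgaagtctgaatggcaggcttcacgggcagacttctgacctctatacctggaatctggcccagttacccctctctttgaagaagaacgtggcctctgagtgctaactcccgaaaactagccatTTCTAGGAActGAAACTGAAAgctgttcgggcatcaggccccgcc
Irgm2: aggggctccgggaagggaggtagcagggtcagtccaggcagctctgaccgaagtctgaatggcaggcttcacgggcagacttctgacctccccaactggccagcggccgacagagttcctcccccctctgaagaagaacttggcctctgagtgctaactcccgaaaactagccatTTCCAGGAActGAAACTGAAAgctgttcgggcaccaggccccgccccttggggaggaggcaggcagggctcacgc
Ifit1: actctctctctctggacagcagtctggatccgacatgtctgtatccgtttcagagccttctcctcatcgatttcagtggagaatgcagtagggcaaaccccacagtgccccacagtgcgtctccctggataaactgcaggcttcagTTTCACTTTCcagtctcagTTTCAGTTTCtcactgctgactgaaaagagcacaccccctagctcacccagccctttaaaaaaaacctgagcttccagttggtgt
Cxcl10 holds 1 response element whose first base is at −213 and Irf1 holds 1 gamma-activated site at −90. The paralogous GTPase genes Igtp and Irgm2 hold both motifs side by side without overlap, starting at −45 and −34 in Igtp and at −75 and −64 in Irgm2. Ifit1 holds 2 response elements on the opposite strand, starting at −104 and −85. Of these genes, Irf1 has the gamma-activated site alone and the smallest fall, which is a description of 5 promoters. Socs1, not shown, holds 2 response elements and 0 gamma-activated sites and differed by only −1.04, so the pattern does not extend to it.

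Peptide presentation on MHC class I fell in 10 of 13 measured members (beside 2.05% of all genes called lower) with 0 higher. All 13 had 6-week arrays below the start arrays (beside 9.64% of all genes), with a median of −1.25. Tap1, which encodes a subunit of the pump that carries peptides into the endoplasmic reticulum, read 10.71, 10.72 and 10.06 at 0 weeks and 8.10, 9.22 and 9.05 at 6 weeks, without overlap. It fell by 1.70 (SE 0.27, limma adjusted p = 0.00265). Of the immunoproteasome subunit genes, Psmb9 fell by 1.86 (SE 0.36, limma adjusted p = 0.00721) and Psmb10 fell by 1.76 (SE 0.33, limma adjusted p = 0.00583), and Tap2 fell by 1.66. The light chain gene B2m at −0.40, H2-D1 at −0.68 and H2-M3 at −0.77 were not called. The count was 10 without 6-week replicate 1, where Psmb9 differed by −1.27, and 5 and 3 without 0-week replicates 1 and 2. MHC class II presentation had 4 of 10 members called lower, beside 2.05% of all genes, and a list median of −0.77. The called members were the regulator Ciita at −1.37, the peptide-loading genes H2-DMa at −1.11 and H2-DMb2 at −0.72, and the protease gene Ctss at −1.48. The class II chain genes H2-Aa, H2-Ab1 and H2-Eb1 were not called. That count was 2 without 6-week replicate 1 or 2, 1 without 0-week replicate 1 and 0 without 0-week replicate 2.

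**Figure D2:**
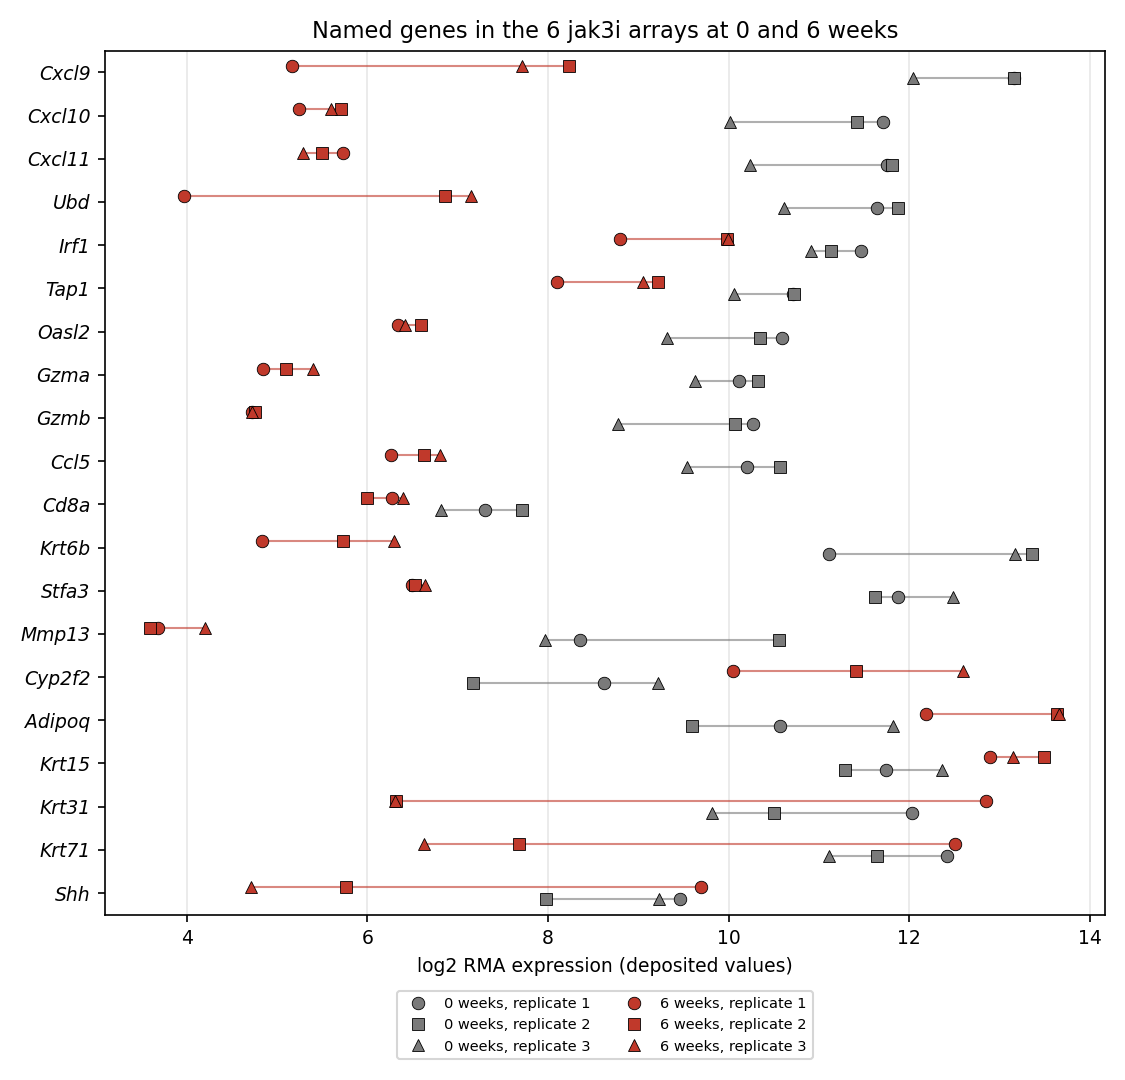
Log2 RMA expression (x axis) of 20 genes in each of the 6 arrays, grey for 0 weeks and red for 6 weeks, with the replicate shown by the marker and lines spanning each group. From Cxcl9 down to Mmp13 the groups do not overlap and 6 weeks is lower, Cyp2f2, Adipoq and Krt15 are higher at 6 weeks, and for Krt31, Krt71 and Shh replicate 1 at 6 weeks lies with or above the start arrays.

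Cytotoxic T and natural killer cell genes were called lower in 12 of 26 measured members (beside 2.05% of all genes) and higher in 0. In 19, all 6-week arrays lay below the start arrays (beside 9.64% of all genes), and the median was −1.0. Gzma and Gzmb, the granule proteases that kill target cells, fell most. Gzma read 10.11, 10.33 and 9.63 at 0 weeks and 4.85, 5.10 and 5.40 at 6 weeks. Gzmb read 10.27, 10.07 and 8.77 at 0 weeks and 4.72, 4.76 and 4.73 at 6 weeks. Both were high on every start array and low on every array at 6 weeks, including replicate 1. The differences were −4.91 (SE 0.71, limma adjusted p = 0.00145) and −4.97 (SE 0.73, limma adjusted p = 0.00149). Ccl5, a chemokine made by cytotoxic cells, went from 10.20, 10.57 and 9.54 to 6.26, 6.63 and 6.81, a difference of −3.54 (SE 0.47, limma adjusted p = 0.00111). Its groups were separated by over 2 units, and its adjusted p was the smallest of the comparison together with those of Ddx60, Ifih1 and Nmi, named here after their values were seen.

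Further down the same list, Gzmc fell by 3.70 (SE 0.78, limma adjusted p = 0.0122). Ifng, the gene of interferon-γ, read 7.86, 7.34 and 6.02 at 0 weeks and 4.86, 4.23 and 4.29 at 6 weeks. It fell by 2.61 (SE 0.60, limma adjusted p = 0.0216) without overlap, but was called in only 2 of the 6 fits that left out an array. The pore-forming Prf1 fell by 0.91 (SE 0.21, limma adjusted p = 0.0201), and Nkg7, Ctsw, Klrd1, Klrc1, Cst7 and Srgn were the other called members. Klrk1, the gene of the activating receptor NKG2D, had a difference of −1.10 (limma adjusted p = 0.0547), and the killing ligand gene Fasl −1.04 (limma adjusted p = 0.105), both without overlap but not called. In PBS over the same weeks Klrk1 differed by −0.11 and Fasl by −1.43, so the fall of Fasl was not larger in jak3i. Fasl started lower in jak3i, at 4.32, 5.50 and 4.33, against 6.22, 6.74 and 6.75 in PBS. At 6 weeks it read 3.62, 3.71 and 3.69 in jak3i, toward the low end of the measured range of 2.59 to 14.69. The sizes of its falls in these arms therefore do not compare like with like. Gzmd, Gzme, Gzmf and Gzmg lay between −0.10 and −0.06. The list count was 13 without 6-week replicate 1, and 6, 5 and 7 without 0-week replicates 1 and 2 and 6-week replicate 3.

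In bulk skin, fewer cells of a type and less RNA per cell cannot be told apart, and the T cell genes are given beside the effector genes for that reason. Of 23 T cell genes, 5 were called lower (beside 2.05% of all genes) and 0 higher, and the median was −0.31. For 8 of them all 6-week arrays lay below the start arrays, beside 9.64% of all genes. The list median in PBS over the same weeks was −0.28, with 0 called. The jak3i change minus the PBS change had a list median of −0.15 and was negative for 15 of the 23. The CD8 coreceptor gene Cd8b1 fell by 1.70 (SE 0.38, limma adjusted p = 0.0185), the costimulator gene Icos fell by 1.61 (SE 0.29, limma adjusted p = 0.00497), the homing receptor gene Cxcr6 fell by 1.66 (SE 0.39, limma adjusted p = 0.0228) and the adhesion gene Cd2 fell by 1.26 (SE 0.29, limma adjusted p = 0.0199). Cd3d was the other. Cd8a read 7.30, 7.71 and 6.82 at 0 weeks and 6.27, 6.00 and 6.40 at 6 weeks, without overlap, and at −1.05 (SE 0.29, limma adjusted p = 0.0507) it was not called. In a fit by probe set, 2 of its 5 probe sets were called lower. Cd3e, a chain of the T cell receptor complex, read 6.99, 7.35 and 7.27 at 0 weeks and 6.83, 7.33 and 7.16 at 6 weeks. Its groups overlapped, with a difference of −0.09 (SE 0.16). The list count was 8 without 6-week replicate 1 and 1 without 0-week replicate 2.

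Genes of the gamma-chain pathway itself, the cytokines, receptors, kinases and STAT factors upstream of these targets, were called lower in 5 of 23, beside 2.05% of all genes, and higher in 0. The median was −0.23. Jak3, which encodes the kinase the arm is named for, read 5.72, 5.51 and 5.74 at 0 weeks and 5.54, 5.72 and 5.93 at 6 weeks, with overlapping groups and a difference of 0.07 (SE 0.14). Jak1 at −0.14, Tyk2 at 0.11, Stat5a at −0.21 and Stat5b at 0.20 were not called. The cytokine gene Il15 at −0.01 and its receptor gene Il15ra at −0.48 were not called either. Il2rb, the receptor chain shared by interleukins 2 and 15, read 6.62, 6.43 and 6.38 at 0 weeks and 5.31, 5.38 and 5.0 at 6 weeks, and fell by 1.24 (SE 0.29, limma adjusted p = 0.0216). Il4ra fell by 1.58 (SE 0.30, limma adjusted p = 0.00619), Stat2 fell by 1.82 (SE 0.37, limma adjusted p = 0.0108), Stat3 fell by 0.90 (SE 0.18, limma adjusted p = 0.00795) and Jak2 fell by 0.63 (SE 0.15, limma adjusted p = 0.026). The groups of these 5 genes did not overlap. The count was 6 without 6-week replicate 1, 2 without 0-week replicate 1 and 0 without 0-week replicate 2.

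Among 18 SOCS feedback and other STAT target genes, 3 were called lower (beside 2.05% of all genes) and 0 higher, with a median of −0.21. Bcl3, a partner of NF-κB and a STAT target, read 8.27, 8.22 and 8.53 at 0 weeks and 6.03, 6.25 and 7.08 at 6 weeks, and fell by 1.89 (SE 0.35, limma adjusted p = 0.00583). Socs3, an inhibitor of JAK signals, fell by 1.19 (SE 0.30, limma adjusted p = 0.0345), and Lif was the third. Cish, a target of STAT5, had a difference of −0.69 (SE 0.21, limma adjusted p = 0.0604) with overlapping groups, and Socs1 one of −1.04 (SE 0.32, limma adjusted p = 0.0664) without overlap. Bcl3 was called in all 6 fits that left out an array and Socs3 in 1. The count was 1 without 0-week replicate 1, 0-week replicate 2 or 6-week replicate 3. Without 6-week replicate 1 it was 5 lower and 2 higher.

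Macrophage genes were called lower in 3 of 20, beside 2.05% of all genes, with a list median of −0.93. The 3 were the scavenger receptor gene Msr1 (−2.14, SE 0.47) and the Fc receptor genes Fcgr1 (−2.57, SE 0.69) and Fcgr4 (−2.83, SE 0.59). Csf1r at −0.33 and Adgre1 at −0.44, which mark the lineage broadly, were not called. That count was 3 without 6-week replicate 1, 0 without 0-week replicate 2 or 6-week replicate 2, and 1 without 0-week replicate 1. Of 20 further chemokine genes, Ccl2 fell by 3.11 (SE 0.73, limma adjusted p = 0.0235) and Ccl12 fell by 2.38 (SE 0.61, limma adjusted p = 0.0365), both of which attract monocytes. Cxcl16 and Cx3cl1 were the other called members, and the list median was −1.33. Without 0-week replicate 1 or 2, 1 and 0 of them were called, 2 without 6-week replicate 2 and 5 without 6-week replicate 1. Of 14 neutrophil and inflammatory genes 0 were called, although in 8 all 6-week arrays lay below the start arrays (beside 9.64% of all genes). The list median was −1.15. S100a8 and S100a9, the calprotectin genes of neutrophils and stressed epidermis, differed by −4.13 (SE 1.24) and −3.87 (SE 1.18) with adjusted p of 0.0615 and 0.0645 in limma. Clec7a, the receptor for fungal glucans on myeloid cells, fell by 4.30 (SE 0.77, limma adjusted p = 0.00435), and the chemokine receptor gene Ccr1 fell by 3.46 (SE 0.69, limma adjusted p = 0.00834). Dendritic cell genes were called lower in 1 of 14, beside 2.05% of all genes, with a median of −0.19. That count was 2 without 6-week replicate 1 or 0-week replicate 3, and 0 in the other 4 such fits. B cell and plasma cell genes were called lower in 0 of 12, with a median of 0.06.

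Keratinocytes carried the largest fall of all. Krt6b, a keratin of wounded or hyperproliferative epidermis that the companion layer of the follicle also makes, read 11.11, 13.36 and 13.17 at 0 weeks and 4.83, 5.73 and 6.30 at 6 weeks. The gap between the groups was close to 5 units, with the lowest start value in replicate 1. The difference was −6.93 (SE 1.29, limma adjusted p = 0.00583). Its partner keratin gene Krt16 fell by 3.93 (SE 0.87, limma adjusted p = 0.0179). Stfa3, a stefin that inhibits cysteine proteases, read 11.87, 11.62 and 12.48 at 0 weeks and 6.50, 6.53 and 6.64 at 6 weeks. All 3 arrays at 6 weeks lay within 0.14 of each other and the difference was −5.44 (SE 0.78, limma adjusted p = 0.00145). In the list of stressed keratinocyte genes 5 of 16 were called lower (beside 2.05% of all genes), Krt17 and Slpi being the others. In 12, all 6-week arrays lay below the start arrays (beside 9.64% of all genes), and the median was −2.91. Several small proline-rich genes had large differences that were not called, such as Sprr2d at −3.55 (SE 1.01, limma adjusted p = 0.0528). The count was 10 without 6-week replicate 1, 1 without 0-week replicate 2, 2 without 6-week replicate 2 and 3 without 0-week replicate 1 or 6-week replicate 3. Keratin and stefin genes lie in families of close relatives, so probe sets may not separate them.

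Other genes of epidermis and matrix among the 20 largest falls were the collagenase gene Mmp13, the metalloproteinase inhibitor gene Timp1, the protease gene Klk6 and the chitinase-like gene Chil1. Mmp13 read 8.35, 10.56 and 7.97 at 0 weeks and 3.68, 3.60 and 4.20 at 6 weeks, a difference of −5.13 (SE 1.05, limma adjusted p = 0.0101). Timp1 fell by 3.57 (SE 0.90, limma adjusted p = 0.0345). These were the 2 members called of 17 metalloproteinases and inhibitors, both lower, beside 2.05% of all genes called lower and a list median of −0.18. That count was 0 without 0-week replicate 2, 1 without 0-week replicate 1 or 6-week replicate 2 or 3, and 3 lower with 2 higher without 6-week replicate 1. Klk6 fell by 3.63 (SE 0.98, limma adjusted p = 0.046) and Chil1 fell by 3.68 (SE 0.74, limma adjusted p = 0.00848). AA467197 fell by 4.90 (SE 0.80, limma adjusted p = 0.00299). Terminal differentiation genes were called lower in 2 of 23, beside 2.05% of all genes, with a list median of −0.55. The 2 were the late cornified envelope genes Lce1f at −2.02 and Lce1d at −1.53. This count was 5 without 6-week replicate 1, 1 without 6-week replicate 3 and 0 without 0-week replicate 2. Basal epidermal genes were called in 0 of 10 with a median of 0.10. The retinoic acid synthesis gene Aldh1a3 fell by 3.28 (SE 0.84, limma adjusted p = 0.0365), and it and Rbp4 were the members called of 16 retinoid genes. Both were called in 2 of the 6 fits that left out an array, where without 0-week replicate 1 or 2 or 6-week replicate 2 or 3 no retinoid gene was called. Aldh1a3 differed by −4.14 without 6-week replicate 1. Of the 20 largest falls, from which unnamed gene models were left out, 11 were called in all 6 fits that left out an array. The number of these 20 called was 11 without 0-week replicate 2 and 16 without 0-week replicate 1. Among the gene models left out, 2610528A11Rik fell by 6.16 (limma adjusted p = 0.0032) and was also called in all 6 fits.

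**Figure D3:**
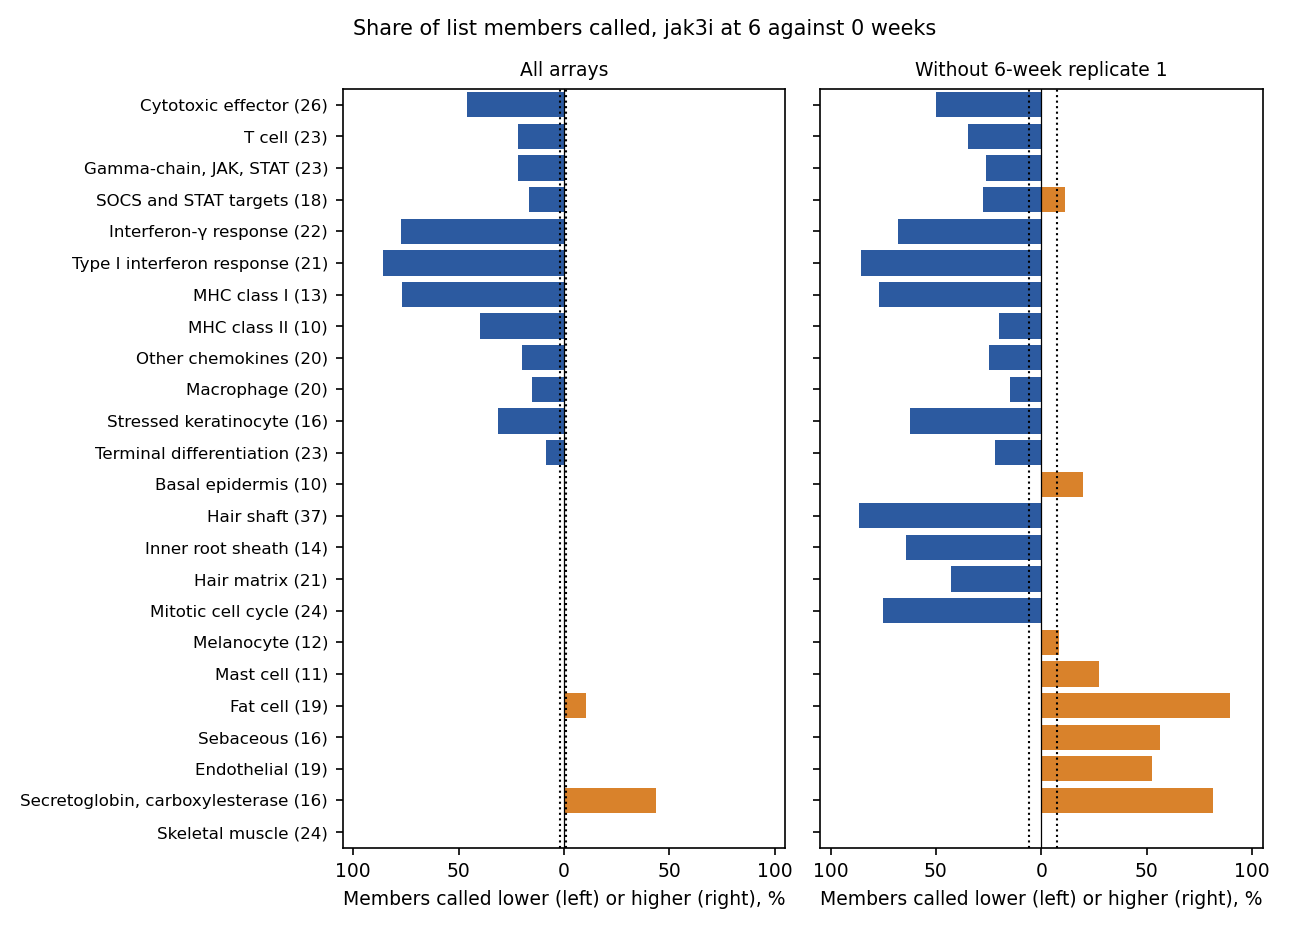
Share of each list's measured members (number in brackets) called lower, to the left in blue, or higher, to the right in orange, for all arrays and without 6-week replicate 1. Dotted lines give the share of all genes, 2.05% lower and 1.1% higher with all arrays and 5.90% and 7.63% without that array, and the hair shaft list goes from 0 of 37 called to 32.

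Genes called higher numbered 200 against 373 lower, and 1389 against 1074 without 6-week replicate 1. Ces1f, a carboxylesterase gene of liver and fat, read 4.74, 3.66 and 6.12 at 0 weeks and 6.24, 9.26 and 9.46 at 6 weeks, a rise of 3.48 (SE 0.93, limma adjusted p = 0.0448). Replicate 1 at 6 weeks lay just above the highest start array. Cyp2f2, a cytochrome P450 gene of airway club cells, read 8.62, 7.17 and 9.22 at 0 weeks and 10.05, 11.41 and 12.59 at 6 weeks, and rose by 3.02 (SE 0.74, limma adjusted p = 0.0302). Scgb1a1, the secretoglobin gene of the same cells, read 5.78, 4.88 and 5.32 at 0 weeks and 7.81, 8.12 and 8.78 at 6 weeks. It rose by 2.91 (SE 0.65, limma adjusted p = 0.0184) with all arrays at 6 weeks at least 2 units above the start. In the list of secretoglobin, carboxylesterase, cytochrome and transporter genes, 7 of 16 were called higher (beside 1.1% of all genes) and 0 lower. In 6, all 6-week arrays lay above the start arrays (beside 9.92% of all genes), and the median was 2.06. That list had been compiled with results of these samples known. Without 6-week replicate 1 it had 13 called, and 1, 0, 0 and 0 without 0-week replicate 1, 0-week replicate 2, 6-week replicate 2 and 6-week replicate 3.

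Fat cell genes lay higher with a median of 1.55 over 19 members, of which 2 were called (beside 1.1% of all genes called higher). In 8, all 6-week arrays lay above the start arrays (beside 9.92% of all genes). Rbp4, the retinol carrier secreted by fat, rose by 2.62 (SE 0.71, limma adjusted p = 0.0467) and the lipid droplet lectin gene Lgals12 by 2.01 (SE 0.55, limma adjusted p = 0.0467). Adipoq, the gene of adiponectin, read 10.57, 9.59 and 11.82 at 0 weeks and 12.19, 13.63 and 13.66 at 6 weeks. Its groups did not overlap, but at 2.50 (SE 0.79, limma adjusted p = 0.0708) it was not called. Without 6-week replicate 1, 17 of the 19 were called higher with a median of 2.13, beside 7.63% of all genes called higher in that fit. Without 0-week replicate 3 the count was 6, and it was 0 in each of the other 4 fits that left out an array. Sebaceous, endothelial, mast cell, Schwann cell and circadian clock genes had medians of 0.62, 0.81, 1.01, 0.67 and 0.54. Of these, only Mal of the Schwann cell list was called, and without 6-week replicate 1 the numbers called higher were 9 of 16, 10 of 19, 3 of 11, 6 of 9 and 7 of 15.

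The remaining largest rises included Cdo1 of cysteine breakdown at 2.87 (SE 0.74), the butyrophilin-like gene Btnl9 at 2.81 (SE 0.64), Rbp7, a retinol-binding protein of fat vessels, at 2.59 (SE 0.63), and Il22ra2, which encodes a soluble decoy receptor for interleukin 22, at 2.78 (SE 0.65). Il22ra2 read 6.12, 5.24 and 7.32 at 0 weeks and 8.55, 8.86 and 9.61 at 6 weeks, so that here replicate 1 at 6 weeks lay with its group. Adgrg2, an adhesion receptor gene, rose by 2.12 (SE 0.41, limma adjusted p = 0.00715), and Hepacam2 by 2.04 (SE 0.42, limma adjusted p = 0.0109). Krt15, the keratin of basal cells and of the follicle bulge where hair stem cells lie, read 11.74, 11.29 and 12.36 at 0 weeks and 12.89, 13.49 and 13.15 at 6 weeks. It rose by 1.38 (SE 0.37, limma adjusted p = 0.0447) without overlap, and was the single member called of 15 bulge genes. It was not called without 0-week replicate 1 or 2 or 6-week replicate 2 or 3, with adjusted p of up to 0.265 in limma, nor with the hair shaft covariate (limma adjusted p = 0.149). The bulge count was 2 without 0-week replicate 3 or 6-week replicate 1. Of the 20 largest rises, 0 were called without 0-week replicate 2 and 4, 1 and 2 without 0-week replicate 1, 6-week replicate 2 and 6-week replicate 3. The 2 genes called higher in every such fit were Myocd, a coactivator of smooth muscle genes, at 0.92, and Pgap1, of GPI anchor remodelling, at 1.04, which were picked out after their values were seen.

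Hair genes were split within the group at 6 weeks. Krt31, a keratin of the hair cortex, read 12.03, 10.50 and 9.82 at 0 weeks and 12.85, 6.32 and 6.31 at 6 weeks. Replicate 1 at 6 weeks was above all start arrays and replicates 2 and 3 were far below them. The difference was −2.29 (SE 1.45, limma adjusted p = 0.364). Krt71 of the inner root sheath read 12.42, 11.64 and 11.11 at 0 weeks and 12.51, 7.68 and 6.63 at 6 weeks, and Shh, the signal of the growing hair matrix, 9.46, 7.98 and 9.23 against 9.69, 5.76 and 4.71. Both had the same split, with differences of −2.78 (SE 1.41) and −2.17 (SE 1.23) that were not called. Of 37 hair shaft genes 0 were called and 0 had groups without overlap, with a median of −3.14. For 14 inner root sheath genes the median was −2.75, also with 0 called. Without 6-week replicate 1, 32 of 37 hair shaft genes were called lower with a median of −5.19, and 9 of 14 inner root sheath genes with a median of −4.66, beside 5.90% of all genes called lower.

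The hair-forming transcription factor genes shared this pattern. Foxn1 read 8.40, 7.28 and 6.90 at 0 weeks and 8.69, 5.54 and 5.85 at 6 weeks, and Hoxc13 9.73, 8.83 and 8.77 against 10.30, 7.12 and 6.64. For both, replicate 1 at 6 weeks had the highest value of the 6 arrays. Hair matrix genes were called in 0 of 21 with a median of −0.38, and 9 were called lower without that array. Mitotic cell cycle genes were called in 0 of 24 with a median of −0.89, and in 18, all lower, with a median of −1.39 without it. Pigment genes of melanocytes varied already at the start, where Tyr read 9.31, 5.23 and 7.72, and 0 of 12 were called, with a median of −0.80. Dermal papilla genes, hair cycle growth factor genes and fibroblast matrix genes had 0 of 13, 0 of 11 and 0 of 18 called and medians of 0.04, 0.09 and −0.01. The signal gene Fgf5, which ends hair growth, read 7.15 in replicate 1 and 4.22 and 4.20 in replicates 2 and 3 at 6 weeks, against 6.19, 4.68 and 5.12 at 0 weeks.

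**Figure D4:**
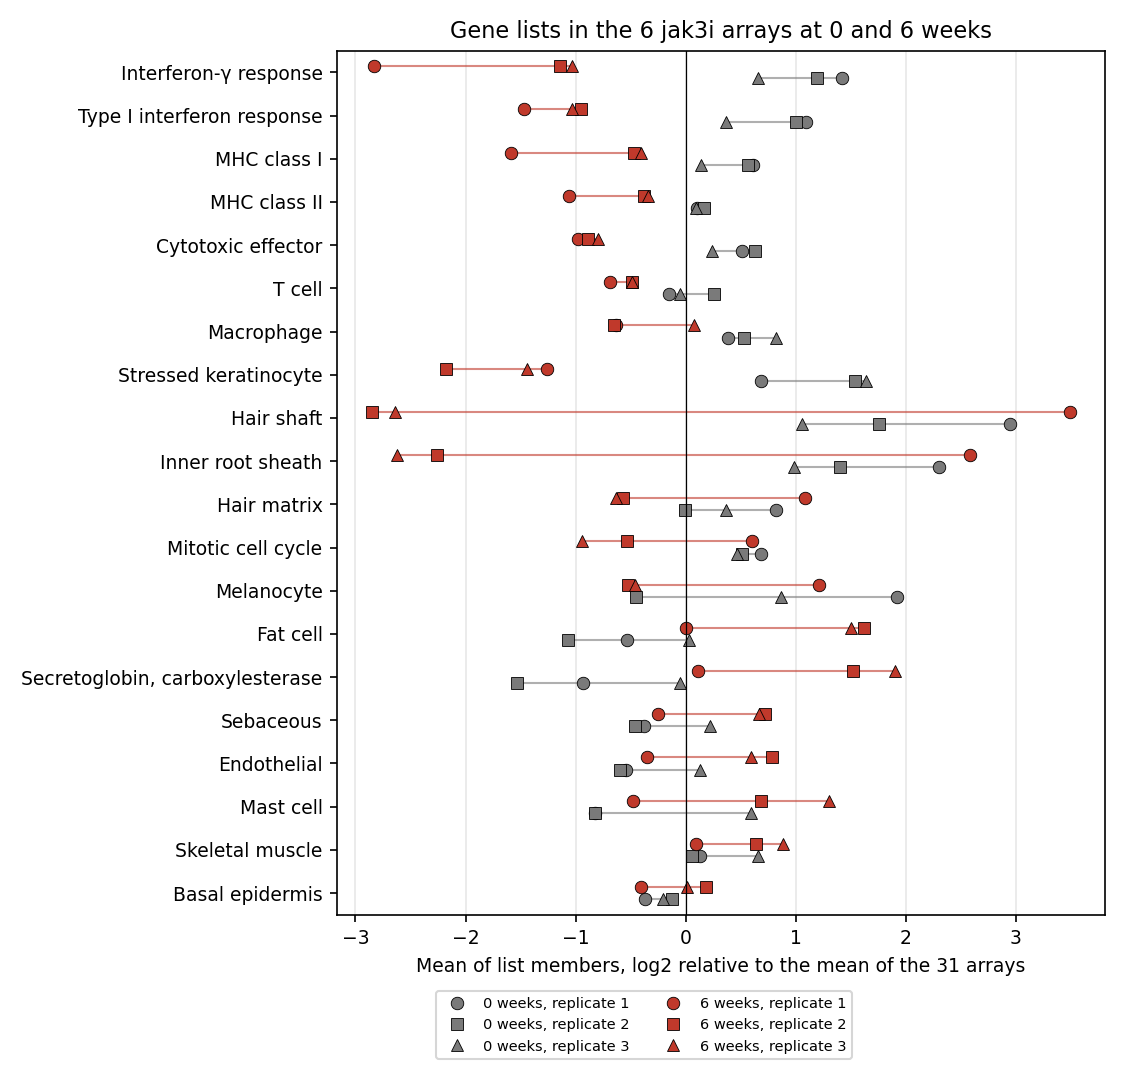
Mean of each list's members in the 6 arrays on the log2 scale relative to the mean of the 31 arrays (x axis), grey for 0 weeks and red for 6 weeks, with the replicate shown by the marker. Interferon, MHC class I, cytotoxic and stressed keratinocyte lists are low on all 3 arrays at 6 weeks, whereas the hair shaft list reads 3.49 in replicate 1 and −2.85 and −2.64 in replicates 2 and 3.

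The immune lists split less evenly. The interferon-γ list also set 6-week replicate 1 apart, but as the lowest array, −2.83 against −1.14 and −1.03, as did the MHC class I list at −1.59 against −0.47 and −0.41. The macrophage list was lower in replicates 1 and 2, −0.63 and −0.65, than in replicate 3 at 0.08. The mean of the cytotoxic genes, relative to their average over the 31 arrays, was 0.51, 0.63 and 0.24 at 0 weeks and −0.98, −0.89 and −0.80 at 6 weeks. The type I interferon genes went from 1.09, 1.0 and 0.37 to −1.47, −0.95 and −1.03, and the stressed keratinocyte genes from 0.68, 1.54 and 1.64 to −1.26, −2.18 and −1.44. Low levels of these last 3 lists were present in the array with high hair genes and in both arrays with low hair genes. The part of hair content in these levels was not tested. With the hair shaft mean as a covariate, 177 genes were called, 164 lower (0.901% of all genes) and 13 higher (0.0715%). In that fit 13 of 21 type I, 9 of 22 interferon-γ, 9 of 13 MHC class I and 7 of 26 cytotoxic genes were called lower, 2 of 16 stressed keratinocyte genes, and 0 fat cell and 0 secretoglobin-list genes were called higher. The medians of the 4 immune lists in that fit were −1.72, −2.41, −1.35 and −0.92, beside −1.93, −2.65, −1.25 and −1.0 without the covariate, and the stressed keratinocyte median was −2.07 beside −2.91. When the 6 arrays were fitted alone, 59 genes were called, 57 lower and 2 higher, and the counts called lower were 7 type I, 2 interferon-γ, 0 MHC class I, 7 cytotoxic, 0 T cell, 2 gamma-chain and 3 stressed keratinocyte genes. Of the 20 largest falls 14 were called in that fit, and of the 20 largest rises 1. Skeletal muscle genes, which mark the depth of a skin sample, were called in 0 of 24 with a median of 0.30.

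Skin of the PBS arm over the same weeks gives the background. From 0 to 6 weeks, PBS had 1 gene called of 18193 (0.0055%), with 1786 at an unadjusted p under 0.05 in limma. The genes that were called lower in jak3i had a median of −0.03 in PBS, and those called higher 0.13, where the lists were chosen on jak3i. In PBS the differences were −0.40 for Cxcl9, −0.57 for Gzmb, −1.36 for Gzma, 0.36 for Krt6b and 0.31 for Krt31. Those of Cd8a and Fasl were −0.80 and −1.43 in PBS, beside −1.05 and −1.04 in jak3i, with no call in either arm. List medians in PBS were −0.28 for T cell genes and −0.12 for cytotoxic genes, beside −0.31 and −1.0 in jak3i. The arms did not start alike. The 0-week means in jak3i and PBS were 7.28 and 8.40 for Cd8a and 4.71 and 6.57 for Fasl. They were 10.02 and 11.46 for Gzma, 9.70 and 10.13 for Gzmb, and 12.79 and 12.65 for Cxcl9. They were 12.54 and 11.23 for Krt6b, 10.78 and 10.08 for Krt31, and 11.99 and 9.85 for Stfa3. These start levels were not tested against each other. The difference between the jak3i change and the PBS change was tested as an interaction. It was called for 1 gene (0.0055%), and 2193 genes (12.1%) had an unadjusted p under 0.05. That gene was Stfa3, which read 10.42, 9.52 and 9.60 in PBS at 0 weeks and 11.77, 11.03 and 11.62 at 6 weeks. It was higher in PBS at 6 weeks on every array and lower in jak3i on every array, and the changes differed by −7.06 (SE 1.11, limma adjusted p = 0.0345). In each of the 12 fits that left out an array of these groups Stfa3 was no longer called. For Cxcl9 the changes differed by −5.36 (SE 1.51, limma adjusted p = 0.175), for Gzmb by −4.39 (SE 1.04, limma adjusted p = 0.116), and for Gzma by −3.55 (limma adjusted p = 0.175). With these groups alone in the fit, 45 genes were called.

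The arm jak1i is set beside jak3i over the same interval, although both compounds are known by code only and no dose is given. From 0 to 6 weeks jak1i had 2250 genes called (12.4%), 1170 lower (6.43%) and 1080 higher (5.94%). Over the genes called lower in jak3i its median was −1.20, and over those called higher 0.76. Cxcl9 differed by −4.61, Gzmb by −5.64, Krt6b by −6.61 and Adipoq by 3.52 in jak1i. The test of the difference between the changes of both arms called 0 genes in limma, with 301 (1.65%) at an unadjusted p under 0.05, and 1 gene was called without jak1i 6-week replicate 1. That 0 genes were called does not show that the arms act alike. The smallest p values belonged to Zbtb21, Hoxd11, Cd3g and 2 unnamed transcripts, and the largest of their differences was Cd3g at 1.46, which read −0.85 in jak3i and −2.31 in jak1i.

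**Figure D5:**
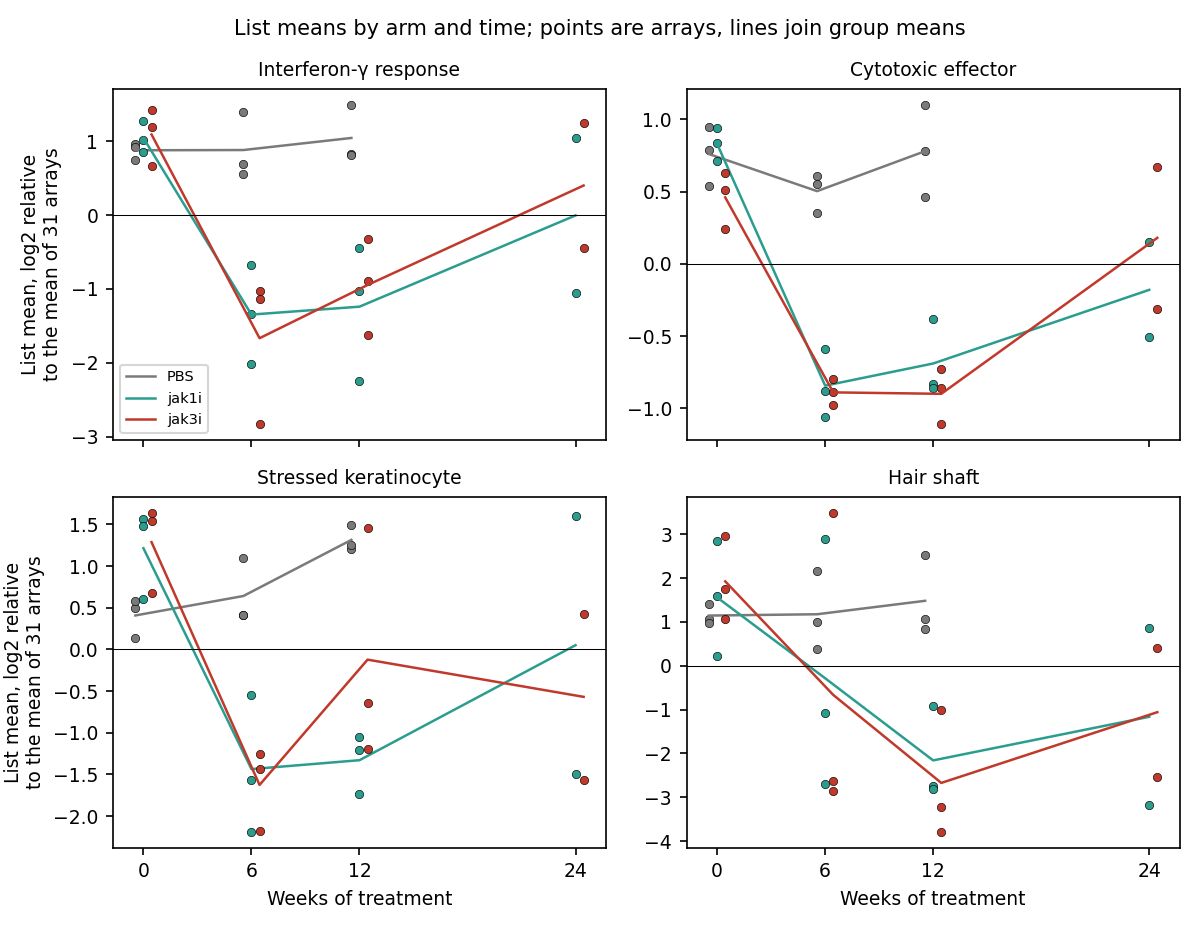
List means on the log2 scale relative to the mean of the 31 arrays (y axis) by weeks of treatment (x axis) in PBS, jak1i and jak3i, with a point for each array and lines through the group means. The interferon-γ and cytotoxic lists of jak3i are below 0 on all arrays at 6 and 12 weeks, and the hair shaft list at 6 weeks spans from −2.85 to 3.49.

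From 6 to 12 weeks of jak3i 1 gene was called (0.0055%), with 1932 (10.6%) at an unadjusted p under 0.05. Slfn4, a schlafen gene of activated myeloid cells, read 9.24, 10.02 and 10.54 at 0 weeks, 5.84, 7.12 and 6.52 at 6 weeks and 9.65, 9.76 and 12.29 at 12 weeks. It was lower than at the start on every array at 6 weeks, and by 12 weeks all arrays lay above those of 6 weeks. Its difference to 6 weeks was −3.44 (SE 0.61, limma adjusted p = 0.00416) and its rise to 12 weeks 4.08 (SE 0.61, limma adjusted p = 0.0183). The count for 6 to 12 weeks was 0 without 6-week replicate 1, 6-week replicate 3 or 12-week replicate 3, 36 without 6-week replicate 2 and 10 without 12-week replicate 2. Krt6b read 8.75, 11.11 and 13.69 at 12 weeks, a difference of 5.56 from 6 weeks (SE 1.29, limma adjusted p = 0.141), and Gzmb read 5.12, 4.99 and 6.90. Genes called lower at 6 weeks had a median of 0.43 from 6 to 12 weeks, which shares its 6-week arrays with the first comparison. At 24 weeks, the interferon-γ list mean read 1.24 and −0.44 on the 2 arrays.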

How the data were processed

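Total RNA of mouse skin was extracted with Qiagen miRNeasy, labelled with the Affymetrix 3′ IVT kit and hybridised to 31 arrays, per the labels' protocols. The deposited log2 values come from RMA run by the authors (per the submitters' processing notes), which normalises the arrays to a common distribution, with a version not given in the sources used here. Of 45101 probe sets, 34945 named a single gene and were no controls. They covered 18193 genes, each represented by the probe set with the highest mean. Among the 10092 others, tested apart, 63 were called, 17 higher and 46 lower.

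A linear model of 11 group means was fitted with limma 3.58.1 in R 4.3.3 (20 residual and 2.5 prior degrees of freedom), and was tested on simulated data. Members and the 36 gene lists were chosen with earlier results of these data known, so lists carry no test. List genes were measured in 621 of 696 entries. Named genes were the 20 largest falls and rises among called genes without overlap, the 4 largest of each list, the 5 largest (or smallest p) of the other comparisons, and a few cytotoxic, interferon, JAK and hair genes. Unnamed gene models were skipped in the first rule, and other called members of a list were named to complete its count. Of 198 such genes 85 had several probe sets, 8 of them with opposite signs and 0 called in opposite directions.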

Additional observations from a re-analysis of the deposited data

Results flagged for a closer look

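Stfa3, the stefin gene, was singled out because its change from 0 to 6 weeks differed between arms in the test of that difference. The jak3i change minus the PBS change was −7.06 on the log2 scale (SE 1.11, limma adjusted p = 0.0345), made up of −5.44 in jak3i and 1.62 in PBS. The arms did not start alike, with 0-week means of 11.99 in jak3i and 9.85 in PBS. All 3 jak3i arrays at 6 weeks lay below all at 0 weeks, and all 3 PBS arrays at 6 weeks lay above theirs. The call was lost when any of the 12 arrays was left out.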

How the results depend on the processing

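For jak3i at 6 against 0 weeks, the 573 calls became 895 with dim genes left out (under 2 arrays above 6.177, leaving 12825 genes), 59 in a fit of the compared arrays alone, 177 with the hair shaft mean as covariate, and 73 to 2463 when an array was left out. Centring (710), averaging probe sets (507), trended and robust variance (555) and the skeletal muscle covariate (484) stayed within 1.5 times. The replicate number as a block gave 399, 81 higher and 318 lower, and as a random block 422. The numbers were not taken as pairs, since no pairing is stated. Deviations of same-numbered arrays at 0 and 6 weeks correlated at 0.49, −0.11 and 0.35, which does not settle whether they are pairs.

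For the difference from the PBS change, 1 call became 2 after centring, 45 in a fit of these groups alone and 0 with the random block or either covariate, and 0 to 1 when an array was left out. For the difference from the jak1i change the count was 0 throughout, except 0 to 1 when an array was left out. From 6 to 12 weeks, 1 call became 0 with the compared arrays alone and 0 to 36 when an array was left out. No named gene changed direction while called. Leaving out 6-week replicate 1 added calls for 53 of the 198 named genes and lost 3, and leaving out 0-week replicate 2 lost 57. The number of arrays, 3 a group, limits the precision, and why these settings move the counts was not tested.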
